A study of Mus musculus with 8 samples.

Results

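Macrophages held in the adipocyte layer of epididymal white adipose tissue (eWAT), called adhesion-related macrophages (ARM), were set against macrophages of the stromal vascular fraction (SVF) of the same fat pad, called stromal macrophages (SM) and labelled NARM in the deposited table, in mice on a high-fat diet (HFD). The members are the count columns of the HFD table, ARM 1 and ARM 2 against SM 1 and SM 2, which makes 4 of the 8 libraries of the series. All mice were WT males of strain C57BL/6J that ate HFD for 8 weeks from an age of 6 weeks, and the sorted cells of 6 mice were pooled for each library. After collagenase digestion the floating fat cells were vortexed with beads until they broke, and ARM were sorted by flow cytometry from the pellet, while SM were sorted from the SVF without that step. Red cells were lysed in both. The way of isolation therefore differs between the groups in the same way as the kind of macrophage, and the effects of the 2 cannot be told apart. The estimated counts summed to 18415520 in ARM 1, 18288775 in ARM 2, 19040133 in SM 1 and 18992793 in SM 2. The table listed 17740 genes, of which 13337 had enough counts to be tested. Genes of lipid handling, adhesion genes and listed genes shown by the study are counted here. Save Itgam, Pnpla2 and Apoe, they are not described one by one. Jun, Ptprc and Adgre1, whose proteins the study also measured, were not in that set and are described. Genes with provisional symbols (Gm and a number, Rik, LOC or -ps), called predicted genes here, are likewise counted and not described.

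Adipose tissue macrophages clear dead fat cells, buffer lipid and iron, and keep vessels and nerves of the fat pad in order. Long-lived resident macrophages lie along vessels and carry scavenger receptors such as Cd163, Lyve1 and Folr2. In obesity further macrophages gather around dying fat cells and take on a lipid-associated state that depends on the receptor Trem2 and includes the genes Gpnmb, Spp1 and Mmp12.

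ARM had higher levels than SM of the chemokine genes Ccl3 and Ccl4, of lipid-associated genes such as Gpnmb and Mmp12, and of some matrix proteases, growth factors and clotting genes. In the lists of proteases, growth factors and clotting genes the most abundant gene was not called higher. Many calls in these lists were lost without ARM 2. Markers of fat cells and of blood vessel endothelium were also higher in ARM. Lower in ARM were genes such as Txnip and Mamdc2. Of 25 tested genes of resident macrophages 0 were called, 4 without ARM 1 and 3 without SM 2, but 24 had a log2 fold change below 0, with a median of -0.39. Levels are given as CPM, a count scaled to a common library size after TMM scaling between libraries. Each gene was tested by the quasi-likelihood test of edgeR, with Benjamini-Hochberg adjustment over all genes tested, and its result is written below as edgeR adjusted p. Calls need both an adjusted p below 0.05 and a change of more than 1.5-fold. Under this rule 595 genes (4.46%) were higher in ARM and 39 (0.292%) were lower. At an unadjusted p under 0.05 and any fold change, 13.4% of the genes tested were higher and 9.75% lower. At an adjusted p under 0.05 and any fold change, a rule chosen after the data were seen, 6.53% were higher and 3.02% lower. Each count in a list below is to be read against the share of all genes under the same rule. The p-values measure the spread between these 4 libraries, each a pool, and an exact permutation test of 2 against 2 libraries cannot give a two-sided p below 0.333. Of the genes called, 490 higher and 29 lower ones lay outside the lipid, adhesion, study-named and predicted genes. The fold change was over 2 for 359 of the 595 and for 4 of the 39. Among genes with a mean of at least 20 CPM, 105 were called higher and 18 lower. Over all genes tested the median log2 fold change, ARM over SM, was -0.01, and 48.5% of the genes were above 0. Both ARM libraries lay above both SM libraries in each of the 595 genes and below them in each of the 39, against 26.3% and 26.4% of all genes tested. The calls rest on the same 4 libraries, so this separation gives no separate support. The number called rested on single libraries. It was 282 higher and 27 lower without ARM 1, and 198 higher and 16 lower without ARM 2. Leaving out SM 1 gave 587 and 50, and leaving out SM 2 gave 557 and 58.

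**Figure D1:**
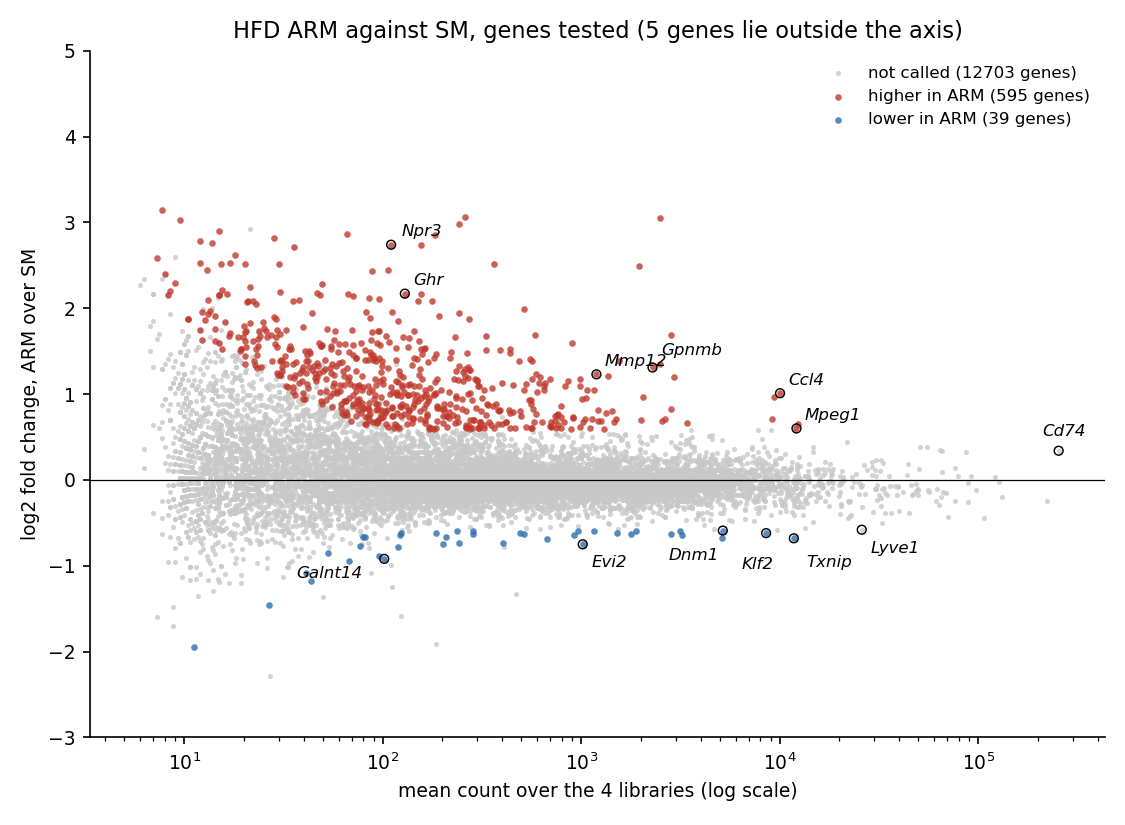
Log2 fold change, ARM over SM on HFD (vertical axis), against the mean count over the 4 libraries (horizontal axis, log scale) for the 13337 genes tested, each a point, with 5 genes outside the vertical axis. The 595 genes called higher are red and the 39 called lower are blue, and the circled genes are named in the text.

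The label of both groups was checked against macrophage genes. The antigens of the sort had like levels in the 4 libraries. Ptprc, which encodes CD45, was at 444 and 446 CPM in ARM and 438 and 448 CPM in SM, and the groups overlapped. Adgre1, which encodes F4/80, was at 1047 and 1034 CPM in ARM and 1083 and 1085 CPM in SM, a log2 fold change of -0.06 (SE 0.06, edgeR adjusted p = 0.61). Itgam, which encodes CD11b, was at 583 and 554 CPM in ARM and 632 and 692 CPM in SM, with -0.22 (SE 0.07, edgeR adjusted p = 0.067). The ARM libraries lay slightly below the SM libraries for both of these, and neither was called. Of 16 macrophage genes, all tested, edgeR called 0 in either direction, with an unadjusted p under 0.05 for 2 higher and 4 lower ones, and DESeq2 called 0. Their median log2 fold change was -0.05, and their levels summed to 25753 and 24268 CPM in ARM and to 26625 and 26317 CPM in SM. Lyz2, lysozyme of macrophages and other myeloid cells, was the most abundant, with 4828 and 4598 CPM in ARM and 5131 and 4556 CPM in SM, and the groups overlapped.

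Genes of other cells of the fat pad were measured next. Of the 595 genes called higher, 64 belonged to marker lists of cells other than macrophages. Another 448 belonged neither to those lists nor to the lipid, adhesion, study-named and predicted genes. Adipocyte markers had the largest shift. Of 19 tested, 16 were higher and 0 lower, with a median of 2.43 on the log2 scale, and 17 of the 19 are lipid or study-named genes. Their levels summed to 860 and 905 CPM in ARM and 373 and 351 CPM in SM, with the lipase gene Pnpla2 the most abundant at 188 and 180 CPM in ARM and 151 and 148 CPM in SM, which was not called. Car3, a carbonic anhydrase abundant in fat cells, was at 173 and 182 CPM in ARM and 32.2 and 31 CPM in SM, with no overlap and a log2 fold change of 2.49 (SE 0.07, edgeR adjusted p = 3.4e-08). Nnat, an imprinted gene of the endoplasmic reticulum, was at 13.5 and 12.9 CPM in ARM and 5.36 and 4.85 CPM in SM, again with no overlap, a log2 fold change of 1.37 (SE 0.13, edgeR adjusted p = 0.00018). In bulk RNA, fewer cells of a type and less RNA per cell cannot be told apart. The part of fat cell RNA in the other results was not tested.

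Blood vessel endothelium had the next largest shift. Of 22 tested markers, 20 were higher and 0 lower, with a median log2 fold change of 1.52. The summed level was 493 and 476 CPM in ARM against 281 and 265 CPM in SM, and the most abundant marker, Eng, a co-receptor that macrophages also express, was at 149 and 155 CPM in ARM and 136 and 154 CPM in SM with overlapping groups. Nos3, the endothelial nitric oxide synthase, was at 4.71 and 3.98 CPM in ARM and 1.17 and 1.38 CPM in SM, a log2 fold change of 1.76 (SE 0.25, edgeR adjusted p = 0.0016). Sox17, an arterial transcription factor, was at 6.07 and 5.59 CPM in ARM and 1.8 and 1.65 CPM in SM, with 1.75 (SE 0.20, edgeR adjusted p = 0.00056). The guidance receptor gene Robo4 was at 11.7 and 12 CPM in ARM and 4.14 and 2.98 CPM in SM, with 1.74 (SE 0.17, edgeR adjusted p = 0.0002). In these 3 genes both ARM libraries lay above both SM libraries. The sialomucin gene Emcn was also higher, at 4.71 and 4.84 CPM against 1.96 and 0.905 CPM, and its call was lost without ARM 1 and without ARM 2. Without ARM 1, 14 of the 22 were called, and without ARM 2, 17.

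Of 7 tested markers of lymphatic endothelium, 3 were higher and 0 lower, with a median of 1.0. They were Reln, a secreted guidance protein, at 1.25 and 1.02 CPM against 0.212 and 0.107 CPM in ARM and SM, Flt4, the VEGF-C receptor, at 2.44 and 2.96 CPM against 0.795 and 0.373 CPM, and Mmrn1, a multimerin, at 2.33 and 1.61 CPM against 0.371 and 0.799 CPM. All 3 were low, 0 of the 7 were called higher without ARM 1 or without ARM 2, and Mmrn1 also lost its call without SM 1. The marker Tbx1 had 0 counts in SM and too few counts to be tested. The summed level of the list went the other way, 1216 and 1046 CPM in ARM against 1718 and 1623 CPM in SM, because Lyve1, which resident macrophages also express, makes up most of it. Of 12 tested markers of pericytes and smooth muscle, 6 were higher and 0 lower, with a median of 0.93 and sums of 168 and 153 CPM against 96.3 and 65.2 CPM. The most abundant was Rgs5, a regulator of G protein signaling in pericytes, at 45.7 and 47.1 CPM in ARM and 24.5 and 15.9 CPM in SM, a log2 fold change of 1.20 (SE 0.15, edgeR adjusted p = 0.00076) without overlap. Pdgfrb, the PDGF receptor of mural cells, was at 18.3 and 15.9 CPM in ARM and 7.21 and 5.59 CPM in SM, with 1.42 (SE 0.14, edgeR adjusted p = 0.00023). The potassium channel subunit gene Abcc9 and the Notch receptor gene Notch3 had log2 fold changes of 1.47 and 1.27. Leaving out SM 1 raised the count for pericytes to 9.

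Fibroblast and progenitor markers moved less. Of 18 tested, 7 were higher and 0 lower, with a median of 0.54 and sums of 1233 and 1440 CPM in ARM against 940 and 920 CPM in SM. Gsn, the actin-severing protein gelsolin, was the most abundant at 482 and 536 CPM in ARM and 357 and 371 CPM in SM, and its fold change stayed under 1.5. Serpinf1, a secreted serpin also called PEDF, was at 59 and 62.5 CPM in ARM and 36.3 and 37.7 CPM in SM, with no overlap and a log2 fold change of 0.72 (SE 0.07, edgeR adjusted p = 0.00021). Lum, a matrix proteoglycan, and Ly6a, which encodes the progenitor antigen Sca-1, were higher by 0.63 and 0.86 on the log2 scale. Lum lost its call without ARM 2 and Ly6a without ARM 1, and the count for the list was 2 of 18 without ARM 2. Without SM 1, 1 was lower. Of 13 mesothelial markers 1, the tight junction gene Cldn15, was higher, the median was 0.17, and the sums were 53.8 and 41.1 CPM against 45.8 and 27.0 CPM. The most abundant, Upk3b, was at 12.6 and 7.8 CPM against 10.2 and 5.27 CPM with overlapping groups. Without ARM 1 and without ARM 2 the count was 0, without SM 1 it was 5, and without SM 2 the median was -0.20.

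Blood cell markers came at low levels. Of 8 tested erythroid and platelet genes 4, all for hemoglobin, were higher and 0 lower, with a median of 0.59 and sums of 64.6 and 79.2 CPM against 38.1 and 28.9 CPM. Hba-a2, an alpha globin gene, was at 22.7 and 30.2 CPM in ARM and 11.5 and 7.14 CPM in SM, a log2 fold change of 1.51 (SE 0.19, edgeR adjusted p = 0.0009) without overlap. Its near-identical copy Hba-a1, and the beta globin pair Hbb-bs and Hbb-bt, had 1.18, 1.28 and 0.92, and counts shared between such copies are uncertain. Hbb-bt lost its call without ARM 1, without ARM 2 and without SM 1, Hbb-bs lost it without ARM 2, and without ARM 2 the count for the list was 2. Of 7 tested T and NK cell markers 2 were higher, with a median of 0.34. They were Il7r, the interleukin 7 receptor, at 14.7 and 19.4 CPM in ARM and 7.58 and 7.62 CPM in SM and Cd4, which some macrophages also express, at 12.7 and 10.2 CPM in ARM and 6.73 and 5.75 CPM in SM. Neither overlapped between the groups, Cd4 lost its call without ARM 1, which left 1 called, and the list summed to 39.2 and 40.8 CPM against 27.8 and 25.7 CPM. Ebf1, a transcription factor of B cells and of fat cell precursors, was the 1 called of 7 B and plasma cell genes, at 6.12 and 6.78 CPM against 2.39 and 2.13 CPM. That list had a median of -0.08 and summed to 16.7 and 18.1 CPM against 15.3 and 12.5 CPM.

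Of 5 tested neutrophil genes edgeR called 0, with 1 at an unadjusted p under 0.05 and 0 called by DESeq2. The gelatinase gene Mmp9, also made by macrophages, was the most abundant at 150 and 108 CPM against 122 and 98.9 CPM. The list had a median of 0.28 and summed to 281 and 229 CPM in ARM against 235 and 217 CPM in SM. Ly6g and Ltf, both of this list, had 0 counts in SM and too few counts to be tested. Kit, the stem cell factor receptor, was the 1 called of 7 mast cell and basophil genes, at 2.82 and 3.71 CPM against 1.06 and 1.44 CPM, and lost its call without ARM 1 and without ARM 2. The most abundant of them, the histamine enzyme gene Hdc, was at 2.71 and 3.33 CPM against 2.33 and 2.13 CPM. The median was 0.20, and the sums were 9.54 and 11.9 CPM against 7.95 and 8.15 CPM. Fcer1a had 0 counts in SM and too few counts to be tested. Of 3 eosinophil genes and of 13 dendritic cell genes edgeR and DESeq2 called 0. Unadjusted p was under 0.05 for 0 of the 3, and for 1 higher and 3 lower of the 13. Eosinophil genes had a median of 0.39, and the most abundant was Il5ra at 2.55 and 2.9 CPM against 1.75 and 2.4 CPM. The dendritic cell genes had a median of -0.15 and summed to 225 and 236 CPM against 278 and 292 CPM, with the lectin gene Cd209a at 101 and 101 CPM against 140 and 142 CPM, a log2 fold change of -0.48 (SE 0.06, edgeR adjusted p = 0.001) that missed the fold threshold. Without ARM 1 and without SM 2, 1 of the 13 was called higher, and without ARM 2 and SM 1, 1 and 2 were called lower. Of 13 monocyte genes 3 were higher and 0 lower, with a median of 0.41 and sums of 210 and 234 CPM against 177 and 181 CPM. The monocyte receptor gene Ccr2 was the most abundant, with overlapping groups at 92.3 and 110 CPM against 92.4 and 99.7 CPM, and Hp, which encodes the hemoglobin-binding protein haptoglobin and is also made by fat cells, was at 14.4 and 16.3 CPM against 3.98 and 3.3 CPM, with 2.08 (SE 0.15, edgeR adjusted p = 2.7e-05). The lectin gene Chil3 was also higher, by 0.85, but only SM 2 could be left out without losing its call. The 1 tested gene of nerve and Schwann cells, Mbp, was not called, at 42.1 and 42.9 CPM against 38.8 and 39.4 CPM. What these other cells add to the genes described below was not tested.

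**Figure D2:**
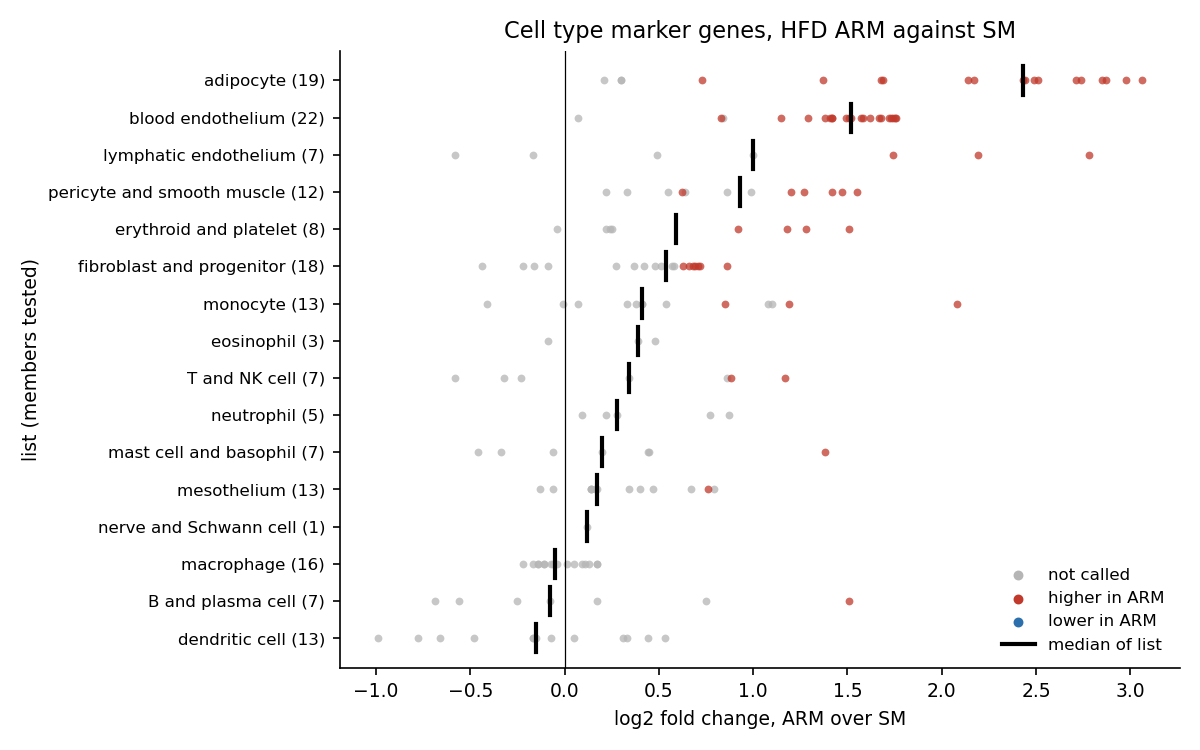
Log2 fold change, ARM over SM on HFD (horizontal axis), of each tested gene in 16 marker lists of cell types (vertical axis, number of genes tested in brackets), with a bar at each list's median. Adipocyte and blood endothelial genes lie farthest to the right, with medians of 2.43 and 1.52, and macrophage genes lie at -0.05.

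The 39 genes lower in ARM were few, and most had moderate changes. Txnip, which binds thioredoxin and holds back glucose uptake, was the most abundant among those outside the lipid, adhesion and study-named genes. Its level was 457 and 509 CPM in ARM and 804 and 748 CPM in SM. ARM 1 and ARM 2 lay below SM 1 and SM 2, and the log2 fold change was -0.68 (SE 0.07, edgeR adjusted p = 0.0003). Klf2, a transcription factor that keeps macrophages and endothelium quiescent, was at 342 and 379 CPM in ARM and 579 and 527 CPM in SM. The groups did not overlap, and the log2 fold change was -0.62 (SE 0.07, edgeR adjusted p = 0.00062). The call of Klf2 was lost without ARM 1 and without SM 1, with values from -0.69 to -0.54 over the left-out libraries, while Txnip was called with any library left out.

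Dnm1, the GTPase dynamin that pinches off vesicles, was at 225 and 216 CPM in ARM and 334 and 330 CPM in SM, with -0.59 (SE 0.06, edgeR adjusted p = 0.00028). Ltc4s, the synthase of leukotriene C4, was at 141 and 126 CPM in ARM and 200 and 205 CPM in SM, with -0.60 (SE 0.07, edgeR adjusted p = 0.00058). Enpep, an aminopeptidase that trims angiotensin, was at 81.2 and 79.6 CPM in ARM and 114 and 128 CPM in SM, with -0.59 (SE 0.07, edgeR adjusted p = 0.00075). In all 3 the ARM libraries lay below the SM libraries, with values near the fold threshold. All 3 lost their calls with library totals and with upper-quartile factors. Ltc4s and Enpep also lost them without ARM 2 and without SM 2, and Dnm1 without ARM 2 and without SM 1, with ranges of -0.68 to -0.52, -0.67 to -0.51 and -0.62 to -0.56. Gprc5b, an orphan receptor of the G protein-coupled class, was at 77 and 73.4 CPM in ARM and 119 and 113 CPM in SM, with -0.63 (SE 0.07, edgeR adjusted p = 0.00031). Mamdc2, a secreted protein with MAM domains, was at 119 and 118 CPM in ARM and 182 and 185 CPM in SM, with -0.63 (SE 0.06, edgeR adjusted p = 0.00019). Slc9a3r2, a PDZ scaffold of sodium-proton exchangers, was at 49.4 and 49.4 CPM in ARM and 74.4 and 74.5 CPM in SM, with -0.59 (SE 0.06, edgeR adjusted p = 0.00038). These 3 had closely matched replicates, no overlap, and were called with any library left out, though Slc9a3r2 lost its call with library totals and upper-quartile factors. Called in all these fits were also Card6, a protein with a caspase recruitment domain, at 21.5 and 22 CPM against 34.4 and 32.8 CPM, and the uncharacterised AI467606 at 37.9 and 38.7 CPM against 59.1 and 60.1 CPM, with log2 fold changes of -0.63 and -0.64. Gypc, glycophorin C of the membrane skeleton, was at 59.2 and 68.3 CPM against 95.8 and 101 CPM, a log2 fold change of -0.62, and lost its call without ARM 1.

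The gene with the largest fall by the naming rule was Galnt14, which starts O-linked sugar chains, with 2.87 and 4.63 CPM in ARM and 6.1 and 8.15 CPM in SM. The groups did not overlap, but the ARM libraries differed widely, and the log2 fold change of -0.92 (SE 0.24, edgeR adjusted p = 0.035) was called again only without SM 1, with values from -1.30 to -0.62. Ip6k3, a kinase of inositol phosphates, was at 3.2 and 3.98 CPM against 6.52 and 6.76 CPM, with a log2 fold change of -0.89, and lost its call without either ARM library. Fgf9, a growth factor, was at 3.09 and 3.01 CPM against 4.82 and 5.59 CPM, with -0.77, and kept its call only without SM 1. Ccdc88c, a partner of Dishevelled in Wnt signaling, was at 27.9 and 27.1 CPM against 37.9 and 50.8 CPM, with -0.69. It was called without SM 1 but not without ARM 1, ARM 2 or SM 2, with values from -0.88 to -0.46. Lrp3, of the LDL receptor family, fell by 0.75 on the log2 scale and lost its call without ARM 1. Prima1, which anchors acetylcholinesterase, fell by 0.66 and lost it without ARM 2. The low genes Cep19, of the centrosome, Fam217b and Zfp960, a zinc finger gene, had -0.85, -0.67 and -0.67 and were not called with any library left out. Fam71a had -0.78 and was called only when an SM library was left out. Mrnip, a DNA repair factor, and Epop, a partner of Polycomb, had -0.63 and -0.62 and kept their calls only without SM 2. The cytochrome P450 gene Cyp2ab1 had -0.62 and kept its call only without SM 1.

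To cover all 29, 4 genes were added after their values were seen. They are Ms4a8a, of the MS4A membrane family, at 41.6 and 40.9 CPM against 62.8 and 61.8 CPM, Fam20a, a pseudokinase of the secretory pathway, at 13.1 and 11.2 CPM against 17.2 and 19.7 CPM, Mctp2, a membrane protein with C2 domains, at 10.4 and 9.73 CPM against 14.9 and 15.7 CPM, and Colca2 at 8.56 and 7.05 CPM against 12.3 and 11.6 CPM. Their log2 fold changes were -0.59, -0.60, -0.60 and -0.62. The calls of Ms4a8a, Fam20a and Mctp2 were lost with library totals and upper-quartile factors. Ms4a8a also lost its call without ARM 2 and without SM 1, Fam20a and Mctp2 were called again only without SM 1, and Colca2 only without SM 2. None of the 39 genes lower in ARM was in a marker list of another cell type, by edgeR's call at the same threshold.

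At the Evi2 locus the direction differed between neighbours. Evi2, a read-through gene that overlaps Evi2a and Evi2b, was at 42 and 39 CPM in ARM and 61.6 and 75.1 CPM in SM, with -0.75 (SE 0.10, edgeR adjusted p = 0.00092). Evi2b, a membrane protein of blood cells, was at 66 and 80.8 CPM in ARM and 36.8 and 28.4 CPM in SM, with 1.17 (SE 0.12, edgeR adjusted p = 0.00032). Evi2a, its neighbour, was at 213 and 213 CPM in ARM and 229 and 218 CPM in SM and was not called. The groups overlapped in neither Evi2 nor Evi2b, but reads in shared exons can be given to any of the 3, so the split between them is uncertain. Evi2a and Evi2b were chosen after their values were seen, and Evi2 lost its call without ARM 2.

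**Figure D3:**
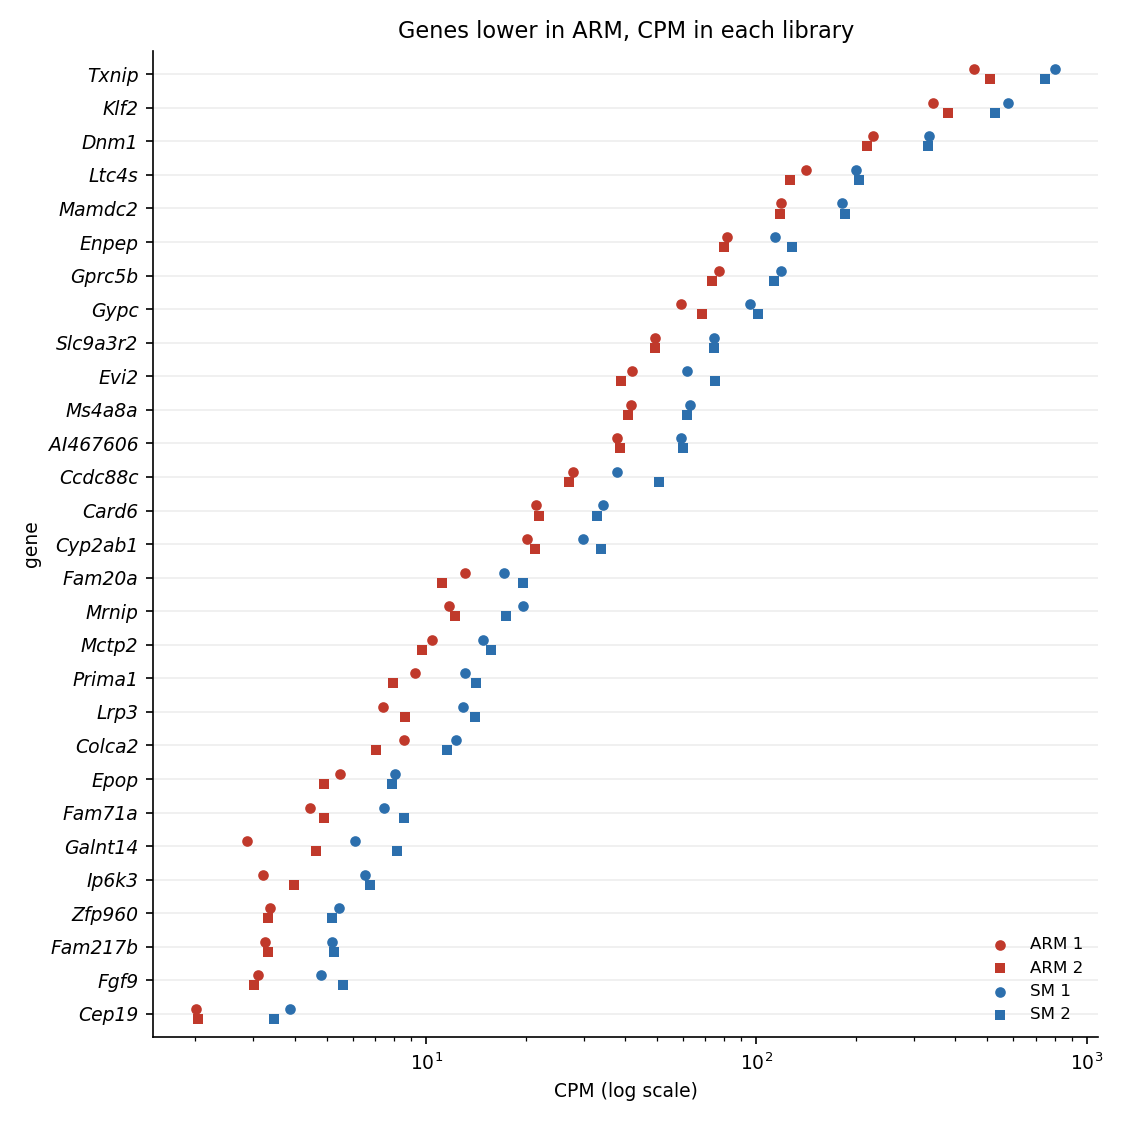
CPM on a log scale (horizontal axis) in each library for the 29 genes lower in ARM outside the lipid, adhesion, study-named and predicted genes (vertical axis). ARM libraries are red, SM libraries blue, replicate 1 a circle and replicate 2 a square. In every gene both ARM points lie to the left of both SM points, from Txnip at 457 and 509 against 804 and 748 CPM to Cep19 at 2.01 and 2.04 against 3.87 and 3.46 CPM.

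Genes of resident macrophages lay below SM as a group, and none was called. Of 25 tested, 24 had a log2 fold change below 0. In the TMM, DESeq2, library-total and upper-quartile scalings the median was -0.39, -0.40, -0.37 and -0.37. In 21 of them the groups did not overlap, with ARM the lower, against 26.4% of all genes tested. By edgeR 0 were called, with an unadjusted p under 0.05 for 21 lower and 0 higher, against 9.75% and 13.4% of all genes, and DESeq2 called 0. At an adjusted p under 0.05 with any fold change, a rule chosen after the data were seen that calls 6.53% of all genes higher and 3.02% lower, 17 were lower and 0 higher. Their levels summed to 34171 and 32649 CPM in ARM and 42310 and 41196 CPM in SM. Without ARM 1, 4 of them were called lower, and without SM 2, 3.

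The following members were chosen after their values were seen, save Lyve1, F13a1 and Selenop. Lyve1, a hyaluronan receptor, was at 1197 and 1026 CPM in ARM and 1707 and 1610 CPM in SM, a log2 fold change of -0.58 (SE 0.08, edgeR adjusted p = 0.0013). Fcna, the lectin ficolin A, was at 473 and 354 CPM in ARM and 684 and 552 CPM in SM, with -0.58 (SE 0.13, edgeR adjusted p = 0.02). Both missed the fold threshold narrowly, and both were called lower without ARM 1 and without SM 2, with ranges of -0.69 to -0.46 and -0.80 to -0.38. Folr2, a folate receptor, was at 1045 and 953 CPM in ARM and 1410 and 1308 CPM in SM, with -0.44 (SE 0.07, edgeR adjusted p = 0.0029). Cd163, the scavenger receptor of hemoglobin bound to haptoglobin, was at 1812 and 1539 CPM in ARM and 2208 and 2198 CPM in SM, with -0.39 (SE 0.08, edgeR adjusted p = 0.011). Retnla, a secreted marker of alternative activation, was at 4703 and 5040 CPM in ARM and 6363 and 6871 CPM in SM, with -0.44 (SE 0.07, edgeR adjusted p = 0.0022). In each of these 3 both ARM libraries were below both SM libraries. F13a1, the clotting transglutaminase of resident macrophages, was at 3289 and 3143 CPM in ARM and 4267 and 4417 CPM in SM, with -0.43 (SE 0.06, edgeR adjusted p = 0.0015). Selenop, the selenium carrier and most abundant of the list, was at 11155 and 10613 CPM in ARM and 13326 and 12312 CPM in SM, with -0.24 (SE 0.06, edgeR adjusted p = 0.043). Neither overlapped between the groups.

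Among 29 transcription factors of the macrophage lineage, Klf2 was the 1 called lower and Runx3, which shapes tissue macrophages and T cells, the 1 called higher, at 6.67 and 8.71 CPM against 3.45 and 5.17 CPM. The median was -0.15 (-0.12 with library totals), and Runx3 kept its call only without SM 2. At any fold change 8 were lower (3.02% of all genes) and 2 higher (6.53%). Klf6, the most abundant, was at 2513 and 2462 CPM against 2760 and 2669 CPM and not called. Klf4, a relative of Klf2 chosen after its values were seen, was at 1321 and 1166 CPM in ARM and 1607 and 1489 CPM in SM, with -0.32 (SE 0.07, edgeR adjusted p = 0.024). Immediate-early factors of the AP-1 and EGR families showed 14 of 20 below 0, with a median of -0.16. By edgeR 0 were called, with unadjusted p under 0.05 for 1 higher and 11 lower (13.4% and 9.75% of all genes), and DESeq2 called 0. At any fold change 6 were lower (3.02% of all genes). Jun was at 1011 and 1093 CPM in ARM and 1430 and 1368 CPM in SM, with -0.41 (SE 0.06, edgeR adjusted p = 0.003), and Fos at 1774 and 1955 CPM in ARM and 2498 and 2287 CPM in SM, with -0.36 (SE 0.07, edgeR adjusted p = 0.011), both chosen after their values were seen. In both genes the ARM libraries lay below the SM libraries. Egr1, the most abundant, was at 3442 and 4019 CPM against 4322 and 4562 CPM, with -0.25 (SE 0.08, edgeR adjusted p = 0.07).

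Txnip was also the 1 called gene of 21 glucocorticoid-induced and clock genes, a list with 15 below 0 and a median of -0.12. At any fold change 7 were lower (3.02% of all genes) and 1 higher (6.53%). After their values were seen, 4 more were picked from this list. Arntl, the clock activator also named Bmal1, was at 58.4 and 58.4 CPM in ARM and 78.9 and 78.8 CPM in SM, with -0.43 (SE 0.06, edgeR adjusted p = 0.0021). Ciart, a clock repressor, was at 37.9 and 36.9 CPM in ARM and 51.9 and 50.8 CPM in SM, with -0.46 (SE 0.07, edgeR adjusted p = 0.0024). Nr1d1, the repressor Rev-erb alpha, was at 116 and 124 CPM in ARM and 146 and 176 CPM in SM, with -0.43 (SE 0.09, edgeR adjusted p = 0.014). The ARM libraries lay below the SM libraries in these genes, of which Arntl and Nr1d1 peak at opposite times of day. The time of collection is not given in the sources used here. Tsc22d3, the glucocorticoid-induced leucine zipper, was at 243 and 238 CPM in ARM and 337 and 294 CPM in SM, with -0.39 (SE 0.07, edgeR adjusted p = 0.0092). Without SM 1, 1 gene of the list was higher.

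Of 18 tested genes of lipid-associated macrophages, 5 were higher and 0 lower, with a median of 0.25 on the log2 scale, and 14 lay above 0. Gpnmb, a membrane glycoprotein of lipid-laden phagocytes, was at 162 and 189 CPM in ARM and 73.9 and 67 CPM in SM. The groups were well apart, with a log2 fold change of 1.31 (SE 0.09, edgeR adjusted p = 2.1e-05). Mmp12, the macrophage elastase, was at 71.6 and 108 CPM in ARM and 40.5 and 36.2 CPM in SM. ARM 2 was the highest, but both ARM libraries lay above both SM libraries, with 1.23 (SE 0.16, edgeR adjusted p = 0.00096). Spp1, the secreted phosphoprotein osteopontin, was at 14.8 and 29.6 CPM in ARM and 9.91 and 10 CPM in SM. Its value of 1.16 (SE 0.26, edgeR adjusted p = 0.019) rested on ARM 2, and without that library it was 0.58 and not called. Atp6v0d2, a proton pump subunit of fusing macrophages, was at 71.2 and 89.5 CPM in ARM and 49.8 and 50 CPM in SM, with 0.69 (SE 0.10, edgeR adjusted p = 0.0019). Mmp14, a membrane-bound collagenase, was at 22.5 and 27.4 CPM in ARM and 12.5 and 15 CPM in SM, with 0.86 (SE 0.12, edgeR adjusted p = 0.0017). Neither overlapped between the groups, and both lost their calls without ARM 2. The cathepsin gene Ctsb and the apolipoprotein gene Apoe, which are the most abundant of the list, were not called, at 6822 and 6708 CPM against 7046 and 6687 CPM and 6965 and 6209 CPM against 7822 and 7325 CPM. Without ARM 2 the count of the list was 2. Mpeg1, which encodes the pore-forming perforin-2 of macrophages and is on no list, was among the most abundant genes called higher, at 769 and 802 CPM in ARM and 518 and 518 CPM in SM, with 0.60 (SE 0.06, edgeR adjusted p = 0.00022). Mpeg1 too lost its call without ARM 2, at the edge of the fold threshold, with values from 0.58 to 0.63.

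Chemokine genes followed. Of 25 ligands tested, 7 were higher and 0 lower by edgeR and by DESeq2, with a median of 0.31. Among the ligands called, Ccl4 and Ccl3, which draw monocytes and lymphocytes, led by abundance. Ccl4 was at 747 and 694 CPM in ARM and 352 and 363 CPM in SM, with 1.01 (SE 0.06, edgeR adjusted p = 1.8e-05). Ccl3 was at 723 and 610 CPM in ARM and 343 and 337 CPM in SM, with 0.97 (SE 0.08, edgeR adjusted p = 7.1e-05). Both had close replicates, no overlap, and calls in every fit with 1 library left out. Cxcl9, which binds Cxcr3 on T cells, was at 10.7 and 10.4 CPM in ARM and 4.24 and 5.65 CPM in SM, with 1.10 (SE 0.16, edgeR adjusted p = 0.0021). Ccl11, the eosinophil attractant eotaxin, was at 11.4 and 14.6 CPM in ARM and 7.42 and 5.59 CPM in SM, with 1.0 (SE 0.17, edgeR adjusted p = 0.005). Cxcl14 was the lowest of the named ligands at 2.93 and 3.55 CPM against 1.33 and 0.959 CPM, with 1.5 (SE 0.28, edgeR adjusted p = 0.0083). In these the ARM libraries lay above the SM libraries, and the calls of Cxcl9 and Ccl11 were lost without ARM 2 and that of Cxcl14 without either ARM library. Without ARM 2 and without SM 1, 1 ligand was lower. Cxcl2, which draws neutrophils and is the most abundant ligand, was at 4188 and 3700 CPM in ARM and 3194 and 3042 CPM in SM, a log2 fold change of 0.34 (SE 0.07, edgeR adjusted p = 0.015) under the fold threshold. Among the 15 chemoattractant receptors tested, 1 was higher, the fractalkine receptor gene Cx3cr1, at 22.9 and 29.5 CPM in ARM and 13 and 17 CPM in SM, with 0.80 (SE 0.14, edgeR adjusted p = 0.0067). It lost its call without ARM 2, 1 receptor gene was lower without SM 1, the median of the receptors was -0.08, and the complement receptor gene C5ar1, the most abundant, was at 1076 and 980 CPM against 958 and 847 CPM.

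Of 25 cytokine genes 2 were higher and 0 lower, with a median of 0.24 and 10 higher at any fold change (6.53% of all genes). Il1a, an alarm cytokine released by damaged cells, was at 94.4 and 101 CPM in ARM and 54.1 and 58 CPM in SM. The groups did not overlap, and the log2 fold change was 0.80 (SE 0.07, edgeR adjusted p = 0.00011). Ifnb1, interferon beta, was low at 5.69 and 5.75 CPM in ARM and 2.28 and 3.25 CPM in SM, with 1.05 (SE 0.21, edgeR adjusted p = 0.011), and lost its call without either ARM library. Cxcl16, the most abundant, was at 278 and 275 CPM against 187 and 202 CPM, with 0.51 (SE 0.06, edgeR adjusted p = 0.00091). Left-out libraries gave counts of 3 without ARM 1, 1 without ARM 2 and 4 without SM 2. Of 38 tested genes induced by interferons 1 was higher, against 4.46% of all genes, and the median was -0.09. The called gene was Ifi205 at 22.8 and 23.3 CPM against 16 and 13.6 CPM. Ifi204, the most abundant, was at 283 and 253 CPM against 322 and 301 CPM. Ifi205 was called again without SM 1, and not without ARM 1, ARM 2 or SM 2, and it belongs to a family of similar genes, so its count is uncertain.

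Inhibitors and targets of NF-kB had 1 of 23 higher, against 4.46% of all genes, with a median of 0.09. It was Tnip3, which binds the deubiquitinase A20, at 48.7 and 56.7 CPM in ARM and 27.3 and 36.4 CPM in SM, with 0.73 (SE 0.12, edgeR adjusted p = 0.0047) and no overlap, called without ARM 1 and SM 2 but not without ARM 2 or SM 1. Tnfaip3, which encodes A20 itself and is the most abundant, was at 1910 and 1912 CPM against 1555 and 1761 CPM and not called. Feedback inhibitors of MAPK and cytokine signaling had 2 of 26 higher, with a median of 0.10. They were the Sprouty genes Spry1 at 9.59 and 9.47 CPM in ARM and 4.35 and 3.94 CPM in SM and Spry4 at 4.44 and 5.65 CPM in ARM and 2.17 and 1.92 CPM in SM, with log2 fold changes of 1.20 (SE 0.15, edgeR adjusted p = 0.00087) and 1.30 (SE 0.22, edgeR adjusted p = 0.0051). Both were free of overlap, and Spry4 lost its call without ARM 2. Zfp36, which speeds the decay of cytokine mRNA, was the most abundant at 6655 and 6437 CPM against 6579 and 6246 CPM with overlapping groups. Socs3, an inhibitor of cytokine receptors chosen after its values were seen, went the other way, at 580 and 627 CPM in ARM and 832 and 770 CPM in SM, with -0.41 (SE 0.07, edgeR adjusted p = 0.0043). Creb5, a CREB family transcription factor on no list, was at 142 and 124 CPM in ARM and 77.4 and 86.6 CPM in SM, with 0.70 (SE 0.08, edgeR adjusted p = 0.00061), and Noct, a circadian enzyme of RNA and cofactor metabolism, was at 188 and 202 CPM in ARM and 110 and 110 CPM in SM, with 0.83 (SE 0.07, edgeR adjusted p = 5.5e-05). Neither of the last pair overlapped between groups, and both were among the 10 most abundant genes called higher outside marker lists.

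**Figure D4:**
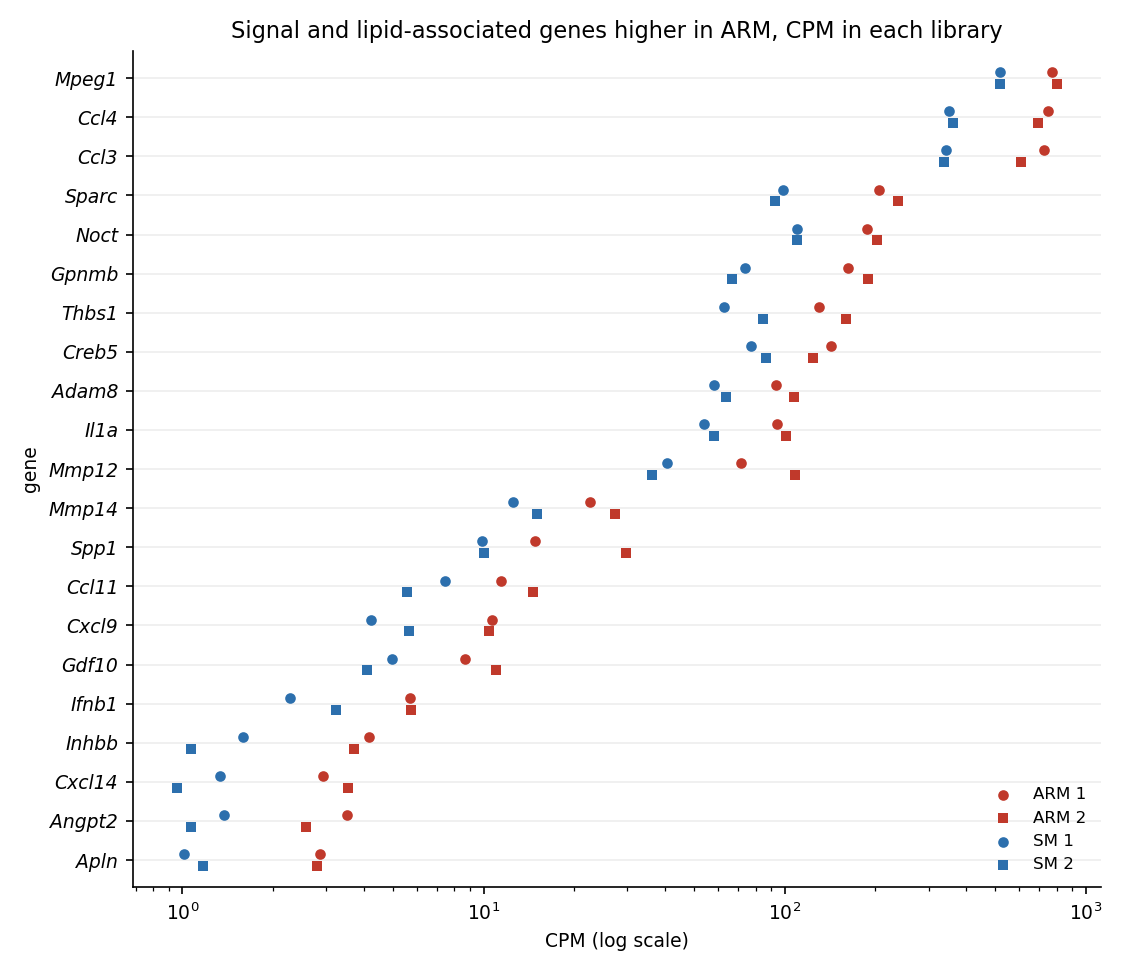
CPM on a log scale (horizontal axis) in each library for signal and lipid-associated genes called higher in ARM (vertical axis), with ARM libraries red, SM libraries blue, replicate 1 a circle and replicate 2 a square. Both ARM points lie to the right of both SM points in each gene, as for Ccl4 at 747 and 694 against 352 and 363 CPM, and Spp1 shows ARM 2 at 29.6 CPM, apart from ARM 1 at 14.8 CPM.

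A list of growth factors, which does not hold the Fgf9 given above, had 8 of 34 higher and 0 lower, with a median of 0.39. The list summed to 2210 and 2172 CPM in ARM and 1960 and 1912 CPM in SM. Vegfa, which drives vessel growth, was at 14.5 and 18.8 CPM in ARM and 7.21 and 9.69 CPM in SM, with 0.98 (SE 0.16, edgeR adjusted p = 0.0044). Gdf10, a TGF-beta family ligand, was at 8.67 and 11 CPM in ARM and 4.98 and 4.1 CPM in SM, with 1.11 (SE 0.17, edgeR adjusted p = 0.0031). Inhbb, a subunit of activin B, was at 4.17 and 3.71 CPM in ARM and 1.59 and 1.07 CPM in SM, with 1.56 (SE 0.26, edgeR adjusted p = 0.0049). The groups did not overlap, Vegfa and Gdf10 lost their calls without ARM 2, and Inhbb lost it without either ARM library. Angpt2 and Apln, both known from vessel sprouts, were at 3.52 and 2.58 CPM against 1.38 and 1.07 CPM and 2.87 and 2.8 CPM against 1.01 and 1.17 CPM, with 1.32 and 1.37. Apln lost its call without either ARM library, and Angpt2 was called again only without SM 1. Igf1, the most abundant, was at 624 and 646 CPM against 654 and 609 CPM with overlapping groups. Gdf15, a stress-induced ligand chosen after its values were seen, was at 525 and 479 CPM in ARM and 333 and 340 CPM in SM, with 0.58 (SE 0.07, edgeR adjusted p = 0.0005), under the fold threshold, and was called without ARM 2 and without SM 2. The count of the list was 4 by DESeq2, 4 without ARM 1 and 1 without ARM 2, and 1 was lower without ARM 1 and without SM 1.

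Response genes of TGF-beta, BMP, Notch and Wnt had 5 of 26 higher and 0 lower, with a median of 0.44. Dll4, a Notch ligand of sprouting vessels, was at 6.39 and 7.31 CPM in ARM and 2.81 and 2.08 CPM in SM, with 1.49 (SE 0.20, edgeR adjusted p = 0.0014). Notch4, a Notch receptor of endothelium, was at 7.59 and 7.64 CPM in ARM and 2.97 and 3.09 CPM in SM, with 1.33 (SE 0.17, edgeR adjusted p = 0.0009). Fzd4, a Wnt and norrin receptor, was at 7.48 and 6.45 CPM in ARM and 2.86 and 2.4 CPM in SM, with 1.40 (SE 0.19, edgeR adjusted p = 0.0013). Both ARM libraries exceeded both SM libraries in these genes, and Dll4 lost its call without ARM 2. The Notch target Nrarp, at 2.93 and 3.82 CPM against 1.75 and 1.01 CPM, was called again only without SM 1. Notch2, the most abundant, was at 486 and 445 CPM against 461 and 475 CPM with overlapping groups. Without ARM 1 the count was 3, and without ARM 2 it was 2. Axon guidance families had 9 of 56 higher and 0 lower, with a median of 0.13. They included Robo4, described among endothelial markers, the ephrin receptor gene Ephb4 at 3.31 and 3.28 CPM against 1.11 and 0.799 CPM, the semaphorin gene Sema3f at 6.18 and 5.38 CPM against 2.12 and 2.18 CPM and the plexin gene Plxna2 at 9.27 and 7.69 CPM against 4.56 and 3.89 CPM. Their log2 fold changes were 1.78, 1.42 and 1.0, and Ephb4 lost its call without either ARM library and Plxna2 without ARM 1. Plxnb2, the most abundant, was at 455 and 466 CPM against 455 and 501 CPM with overlapping groups. The count was 5 without ARM 1, 4 without ARM 2, 11 without SM 1 and 10 without SM 2. The part of vessel cells in these genes was not tested.

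Matrix proteases and their inhibitors had the largest share among the lists of signals, 14 of 29 higher and 0 lower (11 by DESeq2), with a median log2 fold change of 0.60. The list summed to slightly less in ARM, 3770 and 3750 CPM against 3923 and 3891 CPM in SM. Mmp12 and Mmp14 are given above. Adam8, a sheddase of leukocytes, was at 93.2 and 107 CPM in ARM and 58.3 and 63.7 CPM in SM, with 0.71 (SE 0.08, edgeR adjusted p = 0.00053). Timp3, a matrix-bound inhibitor of metalloproteases, was at 51.9 and 51.6 CPM in ARM and 25.3 and 20.5 CPM in SM, with 1.18 (SE 0.10, edgeR adjusted p = 6.2e-05). Timp4, a further inhibitor, was at 4.61 and 3.66 CPM in ARM and 1.01 and 0.799 CPM in SM, with 2.18 (SE 0.28, edgeR adjusted p = 0.00089). These had no overlap and were called with any library left out. Adamts9, which cleaves proteoglycans, was at 7.21 and 6.88 CPM in ARM and 1.48 and 2.13 CPM in SM, with 1.96 (SE 0.21, edgeR adjusted p = 0.00037). Adamts4, an aggrecanase, was at 23.2 and 20.4 CPM in ARM and 10.2 and 9.16 CPM in SM, with 1.17 (SE 0.11, edgeR adjusted p = 0.00015), and Mmp13, a collagenase, was at 44 and 51.2 CPM in ARM and 20.6 and 23.9 CPM in SM, with 1.10 (SE 0.10, edgeR adjusted p = 0.00013), both chosen after their values were seen. In these 3 the ARM libraries lay above the SM libraries, and the calls held with any library left out. Timp2, the most abundant of the list, was at 1629 and 1580 CPM in ARM and 1879 and 1838 CPM in SM, with -0.21 (SE 0.06, edgeR adjusted p = 0.047). Without ARM 2 the count was 8. Sparc, a collagen-binding matrix protein on no list, was at 205 and 237 CPM in ARM and 99 and 92.7 CPM in SM, with 1.20 (SE 0.08, edgeR adjusted p = 2.1e-05), and its groups were apart.

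Clotting and fibrinolysis genes had 7 of 24 higher and 0 lower (4 by DESeq2), with a median of 0.31. The list summed to less in ARM, 5747 and 5642 CPM against 6682 and 6832 CPM in SM. Of the 7, 2 are in marker lists of other cells. Thbs1, the matrix and platelet protein thrombospondin 1, was at 130 and 160 CPM in ARM and 62.7 and 84.9 CPM in SM, with 0.97 (SE 0.13, edgeR adjusted p = 0.0013). F10, the zymogen of factor Xa, which is also on the monocyte list, was at 17.6 and 22.5 CPM in ARM and 8.11 and 9.48 CPM in SM, with 1.19 (SE 0.14, edgeR adjusted p = 0.00057). F7, the zymogen of factor VIIa, was at 6.99 and 11.2 CPM in ARM and 3.45 and 5.17 CPM in SM, with 1.08 (SE 0.25, edgeR adjusted p = 0.023). None of these overlapped, and Thbs1 and F7 lost their calls without ARM 2. F2r, a thrombin receptor, and the thrombin inhibitor gene Serpine2 were at 3.25 and 3.98 CPM against 1.27 and 1.76 CPM and 5.04 and 5.11 CPM against 2.7 and 2.4 CPM, with 1.25 and 0.99, and lost their calls without either ARM library. Against these, the transglutaminase gene F13a1 was below SM as given above, and so was Thbd, which encodes the thrombin-binding thrombomodulin, chosen after its values were seen. Thbd was at 315 and 289 CPM in ARM and 432 and 394 CPM in SM, with -0.45 (SE 0.07, edgeR adjusted p = 0.0032). Leaving out ARM 1 gave a count of 3 and leaving out ARM 2 a count of 2.

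The 20 genes with the largest rises outside other-cell lists, named by rule among those with at least 1 CPM in SM, were mostly low in SM. Npr3, the clearance receptor of natriuretic peptides, led at 10.5 and 10.2 CPM in ARM and 1.7 and 1.38 CPM in SM, with 2.74 (SE 0.18, edgeR adjusted p = 2.2e-05). Ghr, the growth hormone receptor, was at 11.3 and 11.5 CPM in ARM and 2.39 and 2.66 CPM in SM, with 2.17 (SE 0.16, edgeR adjusted p = 3.3e-05). Serpina3n, a secreted protease inhibitor, was at 8.07 and 8.71 CPM in ARM and 2.01 and 1.86 CPM in SM, with 2.11 (SE 0.18, edgeR adjusted p = 1.0e-04). In these the ARM libraries agreed closely and lay well above the SM libraries. Trarg1, a regulator of glucose transporter traffic in fat cells, was at 6.12 and 5.65 CPM in ARM and 1.43 and 1.17 CPM in SM, with 2.17 (SE 0.22, edgeR adjusted p = 0.00027). Adgrf5, an adhesion-class receptor of endothelium and lung, was at 48.6 and 47.9 CPM in ARM and 17.2 and 12.7 CPM in SM, with 1.69 (SE 0.12, edgeR adjusted p = 2.3e-05). Neither of the last pair overlapped.

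Among the other members of the 20, Trp53i11, a membrane protein induced by p53, had 2.08, the postsynaptic scaffold gene Shank3 1.91, and Dysf, for membrane repair, 1.89 on the log2 scale. The synuclein gene Sncg had 1.85 and the imprinted gene Mest 1.74. Tmem252 and C1qtnf9, a secreted relative of adiponectin, had 1.65 and 1.60, and the Cdc42 effector gene Cdc42ep1 had 1.63. The proton-sensing receptor gene Gpr4 was higher by 1.59, the immunoglobulin-domain gene Vsig8 by 1.57 and Clic5, a chloride channel protein, by 1.56. Tmem252 and Gpr4 lost their calls without either ARM library, Cdc42ep1 without ARM 2 and Clic5 without ARM 1. Not all of the 20 are described. Ghr, Trarg1 and Sncg are also known from fat cells, whose markers are higher in the same libraries, and that share was not tested. In SM, 111 of the 595 genes averaged under 1 CPM.

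Of 39 tested C-type lectins and scavenger receptors, 2 were higher and 0 lower, with a median of -0.01 (0.02 with library totals). At any fold change 7 were higher (6.53% of all genes) and 9 lower (3.02%). The list does not hold the lectin gene Cd209d, which is among the 39 genes called lower. Clec4n, which encodes the fungal receptor Dectin-2, was at 20.5 and 17.6 CPM in ARM and 13.3 and 10.1 CPM in SM, with 0.70 (SE 0.14, edgeR adjusted p = 0.01). Olr1, a receptor of oxidized LDL, was at 17.4 and 27.3 CPM in ARM and 10.1 and 13.2 CPM in SM, with 0.95 (SE 0.20, edgeR adjusted p = 0.014). Neither overlapped, Clec4n was called again only without SM 1, and Olr1 lost its call without ARM 2. Counts of the list ran from 0 higher without ARM 2 to 3 without SM 1, with 2 lower without ARM 1 and 1 without SM 2. The mannose receptor gene Mrc1, the most abundant, was at 3527 and 3261 CPM against 3700 and 3804 CPM and not called. Of 9 receptors for immunoglobulin 1 was higher, with a median of 0.06. It was Fcgr4, an activating IgG receptor, at 17.1 and 18.3 CPM in ARM and 7.64 and 8.2 CPM in SM, with 1.16 (SE 0.11, edgeR adjusted p = 0.00015), called with any library left out. Fcgrt, the neonatal receptor that recycles IgG and the most abundant of them, was at 957 and 907 CPM in ARM and 1235 and 1222 CPM in SM, with -0.40 (SE 0.06, edgeR adjusted p = 0.0024), under the fold threshold. Pattern recognition genes had 1 of 33 higher (4.46% of all genes), with a median of -0.02, which is 0.01 with library totals. It was Tlr12, a receptor of profilin, at 1.19 and 1.13 CPM against 0.265 and 0.266 CPM, a call lost whichever library was left out, and Cd14, the most abundant, overlapped at 972 and 994 CPM against 926 and 978 CPM.

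Complement genes had 4 of 21 higher and 0 lower, with a median of -0.07, and 1 of the 4, Cfd, is an adipocyte marker. Of the 21, 14 lay below 0, and at any fold change 5 were higher and 4 lower (6.53% and 3.02% of all genes). Their levels summed to 15024 and 14013 CPM in ARM and 16375 and 16178 CPM in SM. Serping1, the C1 inhibitor, was at 52.8 and 55.3 CPM in ARM and 35.3 and 32.5 CPM in SM, with 0.67 (SE 0.07, edgeR adjusted p = 0.0004). C1s1, a protease of the C1 complex, was at 28 and 28.9 CPM in ARM and 20.9 and 16.5 CPM in SM, with 0.61 (SE 0.11, edgeR adjusted p = 0.0071). Cd59a, which blocks the membrane attack complex, was at 2.71 and 2.96 CPM against 1.64 and 1.17 CPM, with 1.01 (SE 0.27, edgeR adjusted p = 0.044). None overlapped, and C1s1 and Cd59a were called again only without SM 1. The count was 2 without ARM 1, without ARM 2 and without SM 2. C3, the central component, chosen after its values were seen, was at 205 and 197 CPM in ARM and 141 and 139 CPM in SM, with 0.52 (SE 0.06, edgeR adjusted p = 0.00066), just under the fold threshold. C1qa, the most abundant, was at 2949 and 2808 CPM against 3197 and 3156 CPM and not called.

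Genes of antigen presentation by MHC class II lay above SM by small amounts. Of 16 tested, 14 were above 0, and the median was 0.20, which became 0.39 without SM 2 and 0.13 without ARM 2 or SM 1. In 8 of the 16 both ARM libraries lay above both SM libraries, against 26.3% of all genes. By edgeR 0 were called, with an unadjusted p under 0.05 for 6 higher and 0 lower (13.4% and 9.75% of all genes), DESeq2 called 0, and 6 were higher at any fold change (6.53% of all genes). Their levels summed to 28882 and 31017 CPM in ARM and 22364 and 25422 CPM in SM. Cd74, the invariant chain and most abundant of them, was at 14627 and 15795 CPM in ARM and 11105 and 12990 CPM in SM, with 0.34 (SE 0.08, edgeR adjusted p = 0.025). H2-Aa was at 4963 and 5379 CPM in ARM and 3971 and 4256 CPM in SM, with 0.33 (SE 0.07, edgeR adjusted p = 0.012). H2-Ab1, which pairs with it, was at 3780 and 3977 CPM in ARM and 2812 and 3265 CPM in SM, with 0.35 (SE 0.08, edgeR adjusted p = 0.017). Both ARM libraries lay above both SM libraries in all 3, and H2-Aa and H2-Ab1 were chosen after their values were seen. For MHC class I edgeR called 0 of 17, with 1 at an unadjusted p under 0.05, DESeq2 called 0, the median was 0.04, and H2-D1, the most abundant, was at 1968 and 2018 CPM against 2100 and 2082 CPM.

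Of 25 heat shock genes edgeR called 0, with unadjusted p under 0.05 for 4 higher and 8 lower, and DESeq2 called 0. Their median was -0.06, the chaperone gene Hspa8, the most abundant, was at 2441 and 2348 CPM against 2459 and 2541 CPM, and 1 was called higher without SM 1. In the unfolded protein and integrated stress responses 2 of 33 were higher, with a median of 0.03. They were Phgdh, an enzyme of serine synthesis, at 4.99 and 6.18 CPM in ARM and 2.23 and 1.86 CPM in SM, with 1.45 (SE 0.22, edgeR adjusted p = 0.0023), and Slc7a11, the cystine carrier, at 10.6 and 12.2 CPM in ARM and 5.51 and 7.83 CPM in SM, with 0.77 (SE 0.17, edgeR adjusted p = 0.019). Neither overlapped, Phgdh lost its call without ARM 2, and Slc7a11 was called again only without SM 2. The count was 1 without ARM 1, ARM 2 or SM 1, and 3 without SM 2. The chaperone gene Hspa5, the most abundant, was at 1546 and 1559 CPM against 1681 and 1650 CPM. Of 28 antioxidant genes 2 were higher, with a median of 0.05. They were Gpx3, the secreted glutathione peroxidase, at 44.9 and 48.2 CPM in ARM and 31.2 and 27.2 CPM in SM and Sod3, the extracellular superoxide dismutase, at 11.9 and 14.7 CPM in ARM and 6.68 and 6.55 CPM in SM, with 0.67 (SE 0.08, edgeR adjusted p = 0.00089) and 1.01 (SE 0.14, edgeR adjusted p = 0.0016). Gpx3 lost its call without SM 2, which left 1 called. Hmox1, the heme-degrading enzyme and most abundant of that list, was at 1700 and 1427 CPM in ARM and 2053 and 2043 CPM in SM, with -0.39 (SE 0.08, edgeR adjusted p = 0.013), so that it lay below SM under the fold threshold.

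Of 21 genes induced in low oxygen 3 were higher and 0 lower, with a median of -0.00 (0.02 with library totals). They were Vegfa, Epas1, which encodes the hypoxia factor HIF-2 alpha and is abundant in endothelium, at 40 and 38.4 CPM in ARM and 22.8 and 18.3 CPM in SM, with 0.93 (SE 0.10, edgeR adjusted p = 0.00038), and Ndrg1, a stress-induced cytoplasmic protein, at 39.5 and 43.8 CPM in ARM and 25.4 and 27.1 CPM in SM, with 0.67 (SE 0.08, edgeR adjusted p = 0.00078). Neither Epas1 nor Ndrg1 overlapped, and the most abundant gene, the glycolytic regulator Pfkfb3, was at 434 and 394 CPM against 441 and 450 CPM and not called. Without ARM 2 the count was 2. Of 17 p53 targets 1 was higher, against 4.46% of all genes. It was Phlda3, an inhibitor of Akt, at 3.74 and 5.06 CPM in ARM and 1.54 and 1.49 CPM in SM. Its log2 fold change was 1.53 (SE 0.25, edgeR adjusted p = 0.0039), a call lost without ARM 2. The p53 list had a median of -0.06, and the cell cycle inhibitor gene Cdkn1a, its most abundant, overlapped at 662 and 665 CPM against 654 and 677 CPM.

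Metabolic lists had medians near 0. Of 29 genes of glycolysis and the pentose phosphate path, edgeR called 0, with an unadjusted p under 0.05 for 7 higher and 0 lower, DESeq2 called 0, and the median was 0.02. Gapdh, the most abundant, overlapped at 851 and 874 CPM against 804 and 892 CPM, and without SM 2, 1 gene was called. Of 27 genes around the tricarboxylic acid cycle 1 was higher, Me1, which belongs to the lipid genes. The median was -0.03, and Ogdh, the most abundant, overlapped at 200 and 195 CPM against 192 and 208 CPM. Of 80 nuclear genes of the respiratory chain edgeR called 0, with unadjusted p under 0.05 for 7 higher and 1 lower, and DESeq2 called 0. Their median was 0.05, the ATP synthase gene Atp5b, the most abundant, overlapped at 371 and 381 CPM against 375 and 391 CPM, and 2 were called without SM 1. Of 48 lysosomal genes edgeR called 0, with unadjusted p under 0.05 for 5 higher and 12 lower, DESeq2 called 0, and the median was -0.05, with Ctsb again the most abundant. Vacuolar proton pump genes had 1 of 19 higher, Atp6v0d2, against a median of 0.06 and 914 and 894 CPM against 886 and 846 CPM of Atp6v0c, the most abundant.

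Iron and heme genes had 0 of 24 called by edgeR, with unadjusted p under 0.05 for 2 higher and 5 lower, and DESeq2 called 0. Their median was -0.06, and 1 was higher and 4 lower at any fold change (6.53% and 3.02% of all genes). Ftl1, the ferritin light chain, was the most abundant at 5028 and 4980 CPM against 5364 and 5475 CPM. Of 23 genes of amino acid and polyamine metabolism edgeR called 0, with 3 higher and 1 lower at an unadjusted p under 0.05, DESeq2 called 0, and the median was 0.07. Glul, the most abundant, which makes glutamine, was at 1774 and 1662 CPM against 1927 and 1889 CPM. Without ARM 1 and without SM 2, 1 of these was called. Of 22 purinergic genes 1 was higher, against 4.46% of all genes. It was the adenosine receptor gene Adora1, at 0.921 and 0.538 CPM against 0.106 and 0.16 CPM, a call lost whichever library was left out. The purinergic median was 0.05, and Entpd1, the ectonucleotidase CD39 and most abundant of the list, overlapped at 260 and 238 CPM against 257 and 248 CPM.

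Cell cycle genes lay above SM as a group without a call. Of 46 tested, 44 were above 0, with a median of 0.32 (0.20 without SM 1, 0.47 without ARM 1), and 32 had both ARM libraries above both SM libraries (26.3% of all genes). By edgeR 0 were called, with unadjusted p under 0.05 for 25 higher and 0 lower, against 13.4% and 9.75% of all genes, DESeq2 called 0, and 9 were higher at any fold change (6.53% of all genes). Without SM 2, 8 of them were called, and without ARM 1, 2. Tpx2, which builds the mitotic spindle, was at 19 and 20.3 CPM in ARM and 12.9 and 15 CPM in SM, with 0.50 (SE 0.10, edgeR adjusted p = 0.015). Kif20a, a motor of cell division, was at 9.1 and 10.1 CPM in ARM and 6.1 and 7.24 CPM in SM, with 0.53 (SE 0.15, edgeR adjusted p = 0.048). Both were chosen after their values were seen, neither overlapped, and both were called without SM 2. Pcna, the replication clamp and most abundant of the list, overlapped at 206 and 219 CPM against 221 and 212 CPM. Of 12 tested replication-dependent histone genes edgeR and DESeq2 called 0, with 1 higher and 1 lower at an unadjusted p under 0.05. Their median was -0.10, and Hist1h1c, the most abundant, overlapped at 27 and 26.4 CPM against 28.1 and 25.8 CPM. Histone mRNA of this kind has no poly(A) tail, and the way of selecting RNA for the libraries is not given in the sources used here.

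Ribosomal protein genes had 77 of 81 above 0, with a median of 0.17 (0.19 with library totals), and 67 with both ARM libraries above both SM libraries, against 48.5% of all genes above 0 and 26.3% with the libraries so placed. Of these 1 was called higher and 0 lower, and 18 were higher at any fold change (6.53% of all genes). The called gene was Rps6, of the small subunit, at 32.1 and 34.8 CPM in ARM and 22.1 and 17.7 CPM in SM, with 0.75 (SE 0.11, edgeR adjusted p = 0.0017). That level is low for a ribosomal protein gene, many of which have near-identical copies, so its count is uncertain, and the call was lost without ARM 2. Without SM 1, 1 was lower. Rps28, chosen after its values were seen, was at 221 and 217 CPM in ARM and 171 and 160 CPM in SM, with 0.40 (SE 0.06, edgeR adjusted p = 0.0034). Rpl10, the most abundant, was at 852 and 867 CPM against 892 and 888 CPM and not called. By contrast, for the 75 genes of the mitochondrial ribosome edgeR called 0, with 4 higher and 1 lower at an unadjusted p under 0.05, DESeq2 called 0, and the median was 0.00. Mrpl24, the most abundant there, overlapped at 41.1 and 42.8 CPM against 40.5 and 43.2 CPM. For 39 proteasome genes edgeR called 0, with 2 higher and 0 lower at an unadjusted p under 0.05, DESeq2 called 0, and the median was 0.01, with Psmd8 the most abundant at 118 and 118 CPM against 103 and 110 CPM. Zinc finger genes named Zfp had 224 of 316 below 0, with a median of -0.13 (-0.10 with library totals). By edgeR 1 of them was lower and 0 higher, the Zfp960 given above, and DESeq2 called 0. At an unadjusted p under 0.05 by edgeR, 42 were lower and 9 higher (9.75% and 13.4% of all genes). Without SM 1, 2 were higher and 3 lower, and without SM 2, 2 each way. The 1 tested host gene of small nucleolar RNAs, Snhg11, overlapped at 4.93 and 5.38 CPM against 4.08 and 5.91 CPM.

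**Figure D5:**
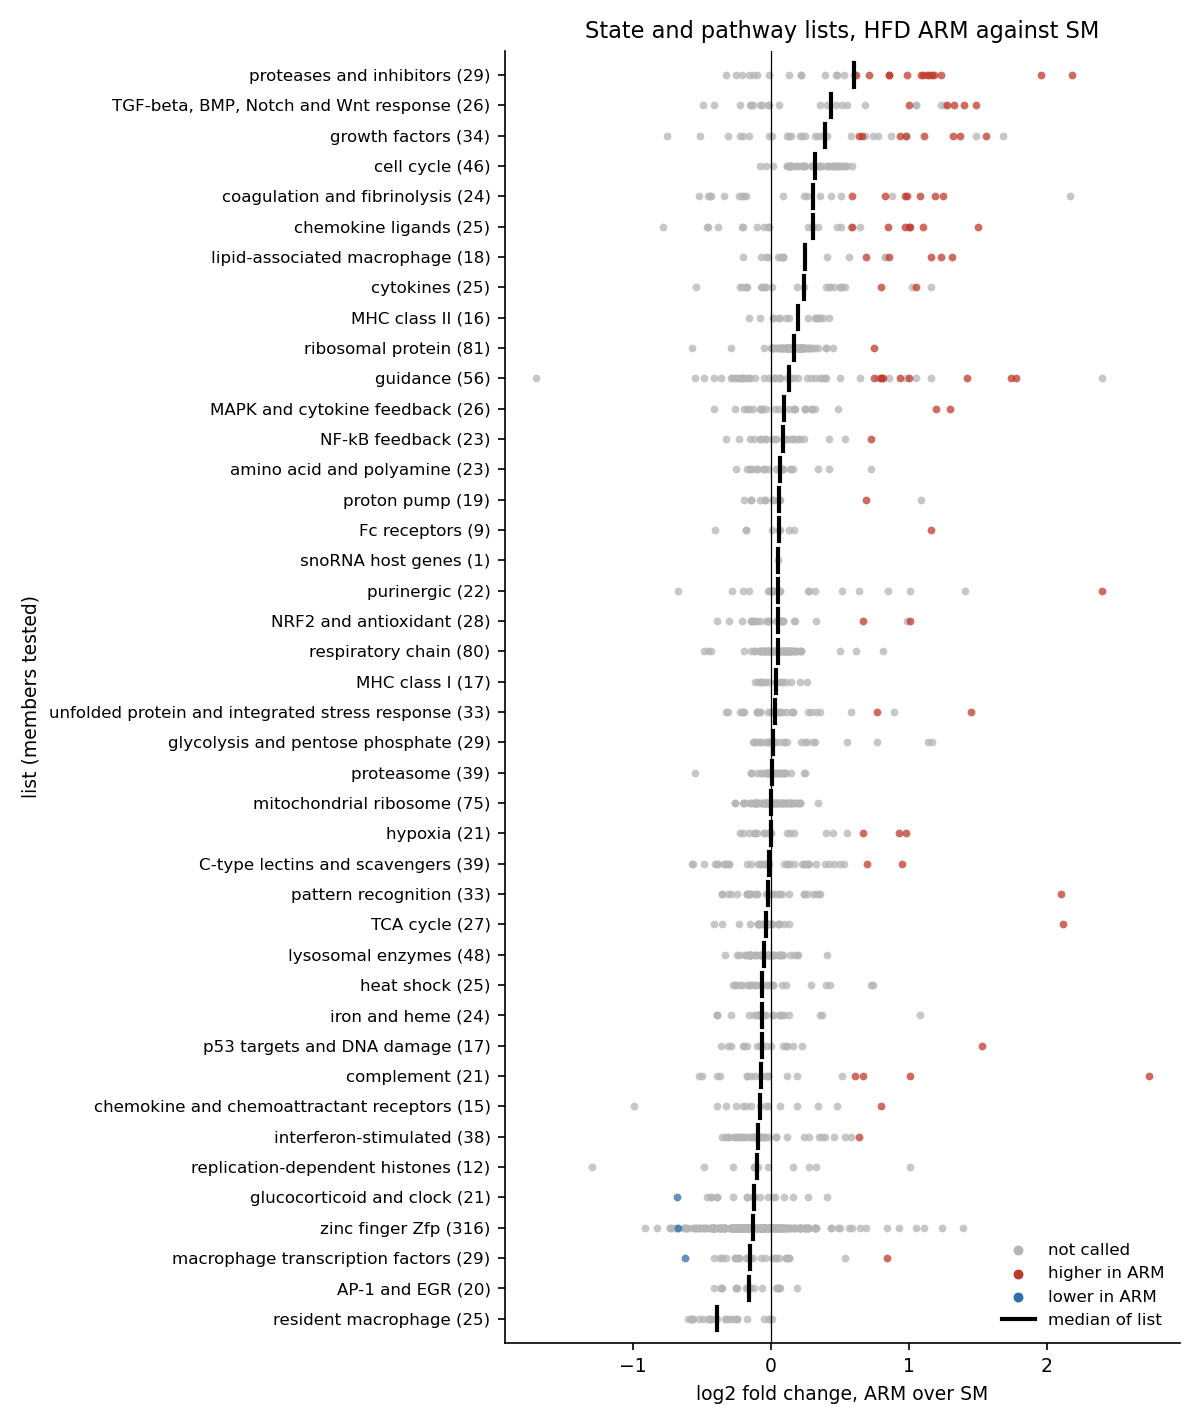
Log2 fold change, ARM over SM on HFD (horizontal axis), of each tested gene in 42 lists of states and pathways (vertical axis, number of genes tested in brackets), with genes called higher red, genes called lower blue and a bar at each list's median. The medians run from 0.60 for matrix proteases and inhibitors to -0.39 for resident macrophage genes.

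Promoters of genes that carry these differences are shown for the most abundant gene called lower, Txnip, and for Ccl3, Gpnmb and Mmp12, which were called higher. Each is 300 bases, 250 before and 50 after the start of transcription, taken from RefSeq on the GRCm38.p6 build, and printed 5′ to 3′ on the gene's own strand. All 4 genes were matched, Mmp12 with both of its promoters. The motifs searched, on both strands, were the AP-1 motif TGANTCA, the PU.1 motif GAGGAAGT and the CCAAT box CCAAT. None of the matches shown overlaps another. Capitals mark these matches. Txnip lies at chr3:96557707-96558006 on the plus strand, Ccl3 at chr11:83649329-83649628 on the minus strand, Gpnmb at chr6:49036268-49036567 on the plus strand, and the promoters of Mmp12 at chr9:7344147-7344446 and chr9:7347124-7347423 on the plus strand.
Txnip: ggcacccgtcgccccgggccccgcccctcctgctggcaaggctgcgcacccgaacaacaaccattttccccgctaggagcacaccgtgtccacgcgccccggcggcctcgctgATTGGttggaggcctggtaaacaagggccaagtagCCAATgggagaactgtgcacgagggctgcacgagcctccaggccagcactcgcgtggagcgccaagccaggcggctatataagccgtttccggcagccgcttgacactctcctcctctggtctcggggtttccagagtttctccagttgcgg
Ccl3: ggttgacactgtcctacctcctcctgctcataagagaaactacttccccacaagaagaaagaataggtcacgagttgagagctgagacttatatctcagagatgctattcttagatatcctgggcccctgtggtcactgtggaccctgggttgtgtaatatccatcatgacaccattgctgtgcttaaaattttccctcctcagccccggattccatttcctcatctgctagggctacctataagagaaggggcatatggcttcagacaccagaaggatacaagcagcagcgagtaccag
Gpnmb: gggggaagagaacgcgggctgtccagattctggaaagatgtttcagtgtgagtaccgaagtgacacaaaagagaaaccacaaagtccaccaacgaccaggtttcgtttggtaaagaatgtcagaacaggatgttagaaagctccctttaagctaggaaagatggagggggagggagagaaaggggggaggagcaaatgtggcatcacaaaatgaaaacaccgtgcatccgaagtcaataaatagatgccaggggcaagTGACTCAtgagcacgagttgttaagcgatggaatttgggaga
Mmp12 promoter 1: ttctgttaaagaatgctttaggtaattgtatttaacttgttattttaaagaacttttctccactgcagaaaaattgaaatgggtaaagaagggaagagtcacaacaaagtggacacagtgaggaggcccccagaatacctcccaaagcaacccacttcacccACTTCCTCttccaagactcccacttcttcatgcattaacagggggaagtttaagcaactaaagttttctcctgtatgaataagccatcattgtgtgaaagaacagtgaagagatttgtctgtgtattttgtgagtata
Mmp12 promoter 2: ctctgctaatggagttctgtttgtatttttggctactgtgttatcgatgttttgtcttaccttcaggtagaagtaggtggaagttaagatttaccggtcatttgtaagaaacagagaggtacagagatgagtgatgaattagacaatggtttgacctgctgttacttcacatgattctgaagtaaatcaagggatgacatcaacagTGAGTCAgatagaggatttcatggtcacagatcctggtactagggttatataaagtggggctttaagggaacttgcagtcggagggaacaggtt
The Txnip window holds CCAAT boxes on both strands, which begin 137 bases before the start on the minus strand and 102 before it on the plus strand. In Gpnmb the AP-1 match begins 9 bases after the start, and in promoter 2 of Mmp12 it begins 44 before the start. Promoter 1 of Mmp12 holds the PU.1 match on the minus strand, 88 before the start. The Ccl3 window holds none of the motifs.

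Over all 32851 promoters of that length, 7.81% hold the AP-1 motif, 3.2% the PU.1 motif and 37.4% a CCAAT box. Of the tested genes, 10595 have a promoter in the table, and the shares are 6.58%, 3.9% and 42.9%. Among the 403 genes called higher that have one, 46 (11.4%) hold AP-1, 16 (3.97%) PU.1 and 155 (38.5%) a CCAAT box. Among the 29 called lower that have one, 4 (13.8%), 2 (6.9%) and 8 (27.6%) do. A match describes letters in these windows and is no sign that a factor binds there.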

How the data were processed

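The authors deposited a table for HFD with an estimated count, an FPKM and a TPM per gene and library, genes named by symbol and Entrez ID. The submitters' processing notes name the mm10 build, and the aligner and counter are not given in the sources used here. Between 32.3% and 32.9% of the counts were not whole, and they were rounded. Counts were fitted in edgeR 4.0.16 (R 4.3.3) with TMM factors of 1.003, 1.017, 0.9912 and 0.9891 for ARM 1, ARM 2, SM 1 and SM 2, the filterByExpr filter and the quasi-likelihood test.

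Symbols were corrected by Entrez ID in 35 cases, and 17614 IDs were in RefSeq. Outside lipid, adhesion, study-named and predicted genes, the rule named the 20 largest changes in each direction with at least 1 CPM in SM (for rises, outside other-cell markers), the 10 most abundant called genes in each direction outside the marker lists, and in each list up to 4 called genes and the most abundant. It gave 180 genes. The 3 antigens of the sort were added, and 28 were chosen after their values were seen. The members and the 59 gene lists were chosen with earlier results of these data known.

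Alternatives were DESeq2 1.42.0, library totals, upper-quartile factors, dropping the filter, a minimum of 10 counts in each library, a log2 fold change over 0.6 with an unadjusted p under 0.05 (after the study's methods, which give p without saying if it was adjusted, while its figure for this contrast gives the rule used for calls here), the replicate number as a block, limma 3.58.1 on log2(FPKM + 1) and log2(FPKM + 0.1) of genes with an FPKM of at least 1 in at least 2 libraries, and each library left out. The rule of an adjusted p under 0.05 at any fold change was chosen after seeing the data. The scripts were tested on simulated data. TPM and the table of the other diet were not used, and mitochondrially encoded transcripts were not analysed here. Figures were drawn with matplotlib 3.10.9 in Python 3.11.15.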

Additional observations from a re-analysis of the deposited data

How the results depend on the processing

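The 595 genes higher and 39 lower in ARM became 360 and 23 with DESeq2, 648 and 32 with library totals, 630 and 32 with upper-quartile factors, 167 and 14 with no filter beyond 1 count in all, 922 and 95 at a log2 fold change over 0.6 with an unadjusted p under 0.05, 290 and 9 with limma on log2(FPKM + 1), and 305 and 21 with limma on log2(FPKM + 0.1). A minimum of 10 counts in each library gave 605 and 47, with 524 of the 595 and 34 of the 39 called again. At an adjusted p under 0.05 with any fold change, a rule chosen after seeing the data, the counts were 871 and 403. With 1 library left out they lay between 198 and 587 higher and between 16 and 58 lower, with a single ARM or SM library assumed to vary like the pair of the other group. Fewer samples enter those fits, and more genes enter the fit without a filter. The cause of any of these shifts was not tested. Library totals and upper-quartile factors each kept all 595 and 32 of the 39. DESeq2 called 360 of the 595 and 23 of the 39, and the fit without ARM 2 called 193 and 12 of them.

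With the replicate number as a block the counts were 626 higher and 47 lower, and 586 of the 595 and all 39 of the lower genes were called again. No named call was lost, and Fcna was also called lower. Whether libraries of the same number came from the same mice is not given in the sources used here. The correlation of the deviations of same-numbered libraries from the group means was 0.035 over 12356 genes.

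Of the 135 named genes that were called, 46 were called under every alternative that could be fitted to them and 51 under every one with all libraries, and 0 reversed. Without a filter 74 lost the call, without ARM 2 67, with DESeq2 27, and with limma on log2(FPKM + 0.1) 45 of the 118 it could fit. With library totals and with upper-quartile factors 7 did, all lower in ARM and near the fold threshold: Dnm1, Enpep, Fam20a, Ltc4s, Mctp2, Ms4a8a and Slc9a3r2. Of the 76 named genes not called, 18 changed sign under some alternative, none with a log2 fold change over 0.22 in size. This does not count Upk3b, whose value of 0.40 reached -0.00 with a library left out. List medians of at least 0.1 in size changed sign for mesothelium, for mast cells and basophils (-0.02 and -0.05 with limma on FPKM) and for histones (0.03 without ARM 2). Leaving out 1 library also changed the log2 medians of some lists by a factor of about 1.5 or more. That factor is a ratio of log2 values and not a fold change in level, so for small medians the shift in level was small. Among these lists were lymphatic endothelium, T and NK cells, neutrophils, eosinophils, dendritic cells, cytokines and MHC class II. Guidance genes, clotting genes, lipid-associated macrophages, macrophage transcription factors and the cell cycle were others. Depth limits the 111 genes higher in ARM that averaged under 1 CPM in SM.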
